A study of Mus musculus with 2 samples.

Results

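Zpld1, Msx1, Msx2 and Lmo4 were followed in single cells of the mouse utricle. They are 4 of the 31053 genes listed in both count matrices, and each had at least 10 UMIs (unique molecular identifiers, which count captured RNA molecules) in the cells kept at either age. The genes were picked by name after their levels in these same libraries were known, so every level and every difference between ages below is a description of the libraries and carries no test. The tissue was utricle from WT mice at postnatal day 2 (P2) and embryonic day 14 (E14), with 1 library per age. Sensory epithelia were detached with thermolysin and dissociated, then captured on a droplet platform that reads the 3′ end of each RNA. How many animals contributed to a library is not given in the sources used here, and 1 library per age leaves no replicate error, so the 95% intervals below cover counting error only.

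Zpld1 encodes a zona pellucida domain protein of the cupula, the gel that rests on the hair bundles of the ampullary cristae, the sense organs for head rotation. Msx1 and Msx2 are homeobox transcription factors that commonly respond to BMP signalling, and BMP4 marks the cristae in the embryonic ear. Lmo4 is a LIM-only cofactor with no DNA-binding domain of its own, which competes for the adaptor Ldb1 and is needed in mice for normal cristae and semicircular canals. The utricle is a macula, an organ for linear acceleration, whose hair bundles lie under a gel with otoconia. Crista and canal epithelium adjoins it in the embryo.

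In GENCODE M21 on GRCm38, all 4 are protein-coding genes on the minus strand. Zpld1 (ENSMUSG00000064310) spans chr16:55225175-55297986, Msx1 (ENSMUSG00000048450) chr5:37820485-37824583, Msx2 (ENSMUSG00000021469) chr13:53466884-53473074 and Lmo4 (ENSMUSG00000028266) chr3:144188530-144205220. The bases upstream of RefSeq gene starts (GRCm38.p6, minus strand, 5′ to 3′) are shown for 3 of the genes. They set a Zpld1 stretch without CpG pairs, which lies within its GENCODE gene, beside CpG-bearing windows at the 5′ ends of Msx1 and Lmo4. The Zpld1 stretch stops 46 bases before its start, since those bases are exonic in GENCODE. The Msx1 and Lmo4 windows reach their starts, so the Zpld1 stretch is not placed alike. Capitals mark the CCAAT box on either strand (CCAAT or ATTGG), which 33.8% of 32851 upstream windows of mouse genes held.
Zpld1, chr16:55283284-55283487: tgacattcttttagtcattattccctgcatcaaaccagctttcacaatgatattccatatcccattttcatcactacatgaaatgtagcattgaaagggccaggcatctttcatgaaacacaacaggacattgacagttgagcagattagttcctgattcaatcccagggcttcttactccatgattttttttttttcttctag
Msx1, chr5:37824586-37824835: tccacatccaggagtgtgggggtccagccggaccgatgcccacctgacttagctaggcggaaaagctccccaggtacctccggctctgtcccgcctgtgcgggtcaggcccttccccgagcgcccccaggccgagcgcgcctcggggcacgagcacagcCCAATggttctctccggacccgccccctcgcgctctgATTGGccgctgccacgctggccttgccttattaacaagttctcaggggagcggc
Lmo4, chr3:144205256-144205505: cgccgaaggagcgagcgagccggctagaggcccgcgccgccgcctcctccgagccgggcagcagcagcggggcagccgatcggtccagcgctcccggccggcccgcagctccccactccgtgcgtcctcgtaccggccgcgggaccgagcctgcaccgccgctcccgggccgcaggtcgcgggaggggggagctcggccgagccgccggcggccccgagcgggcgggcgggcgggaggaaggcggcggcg
The Zpld1 window lies inside the longer GENCODE gene, whose 5′ end is at base 55297986, and the printed stretch ends at a GENCODE exon. The CpG contrast thus sets sequence within a gene beside windows at the ends of genes. Whether the Zpld1 window acts as a promoter was not tested. Its full 250 bases, of which 204 are printed, were 40.4% G and C with 0 CpG pairs. The Msx1 window was 68% G and C with 20 CpG pairs, an observed over expected ratio of 0.704 against a median of 0.374 over all windows, and its CCAAT boxes began 91 and 54 bases before the start. The Lmo4 window, at the outermost of its RefSeq starts, was 82.4% G and C with 44 CpG pairs, and its CpG ratio of 1.04 was higher than in 95.8% of windows. The upstream window of Msx2 is exonic in GENCODE and is not printed. GGCGCC, found in 9.59% of windows on either strand, and TATAAA, found in 12.4%, were in none of the printed stretches.

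The P2 matrix held 57003553 UMIs in 6251 barcodes and the E14 matrix 122892080 UMIs in 15636 barcodes. After a filter on genes, UMIs and mitochondrial share and the removal of likely doublets, 3877 cells were kept at P2 (median 9795 UMIs) and 10138 at E14 (median 6650 UMIs). The 2 libraries shared 23 barcode sequences. Haemoglobin RNA took 0.0393% of UMIs at P2 and 5.22% at E14. Each library was clustered without the 4 genes, into 26 clusters at P2 and 32 at E14, and a cluster was given a name ending in "-like" only where at least 3 markers of a cell type marked it. Named epithelial cells were 790 hair cell-like, 638 supporting cell-like and 124 nonsensory epithelial-like at P2, and 191, 632 and 681 at E14. Mesenchymal-like cells were 32 at P2 and 3814 at E14. Unnamed clusters held 59.1% of the P2 cells and 38.0% of the E14 cells and are given by number. The names were rebuilt here, so classes may differ from those of the study.

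Zpld1, Msx1 and Msx2 were lower at P2 than at E14 over the epithelial-like cells (hair, supporting and nonsensory together), by factors that ranged widely, and Lmo4 was lower by less. Zpld1 stood at 132 (128 to 137) counts per 1000000 UMIs (CPM) at P2 and 739 (727 to 751) CPM at E14, a P2 over E14 ratio of 0.179 (0.172 to 0.186). Msx1 stood at 1.01 CPM (26 UMIs) at P2 and 78.2 CPM (1623 UMIs) at E14, a ratio of 0.0129 (0.00840 to 0.0190). Msx2 had 9 UMIs at P2, 0.349 CPM, and 247 UMIs at E14, 11.9 CPM, a ratio of 0.0293 (0.0133 to 0.0566). For Msx1 and Msx2, then, P2 levels rest on few molecules. Lmo4 was at 143 CPM at P2 and 174 CPM at E14, a ratio of 0.826 (0.788 to 0.865). This pooled Lmo4 ratio lay above the ratio of each class it sums, 0.577 to 0.719, and hair cell-like cells, the class with the highest Lmo4 level, were 790 of 1552 cells at P2 and 191 of 1504 at E14. With the barcodes shared by both libraries left out, which also changed the clusters and their names, the Zpld1 ratio was 0.317, and over all kept cells it was 0.684, so its size depended on which cells were counted. Fewer positive cells and less RNA per cell cannot be told apart in such summed values.

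Among the named classes, Zpld1 was highest in a different class at each age, and much of it lay in clusters without a name. In supporting cell-like cells Zpld1 was at 2.44 (1.62 to 3.53) CPM at P2 and 1602 (1576 to 1628) CPM at E14, a ratio of 0.00153 (0.00101 to 0.00220). In nonsensory epithelial-like cells it was at 1654 (1597 to 1712) CPM at P2 and 7.60 (5.89 to 9.65) CPM at E14, a ratio of 218 (171 to 282). Cluster 20 alone held 3213 of the P2 UMIs of this class, and without it the class was at 3.46 CPM at P2, a ratio of 0.455 (0.0916 to 1.39), a comparison chosen after seeing the data. Hair cell-like cells held 13.1 (11.2 to 15.3) CPM at P2 and 83.7 (72.8 to 95.7) CPM at E14, a ratio of 0.157 (0.127 to 0.193). In 1 E14 hair cell-like cell there were 82 Zpld1 UMIs, and without it, likewise chosen after seeing the data, the E14 level was 52.2 CPM and the ratio 0.251 (0.198 to 0.318). Outside the named classes, unnamed cluster 17 held 3417 Zpld1 UMIs at P2, and unnamed clusters 13 and 9 held 2019 and 930 at E14, where 3 of the genes that marked cluster 13 (Oc90, Wnt6 and Meis1) were on the nonsensory marker list. Different clusters made up each named class at each age: supporting clusters 1, 9 and 11 at P2 and 6, 18 and 27 at E14, and nonsensory clusters 20, 21 and 25 at P2 and 12, 15, 25 and 26 at E14. The E14 nonsensory level depended on which clusters took that name, and it was 109.5 to 167.6 CPM without the cell filter, with doublets kept, at resolution 0.5 and with 15 principal components, against a P2 level of 1300 to 1820 CPM in the same alternatives. Mesenchymal-like cells had 1 Zpld1 UMI in 32 cells at P2 and 4.55 CPM at E14, where single cells of clusters 3 and 10 held up to 12 UMIs. Whether these UMIs were free RNA was not tested. In barcodes that failed the filter Zpld1 was at 26.3 CPM at P2 and 61.4 CPM at E14, both above the P2 supporting cell-like level, and the part of free RNA in low class levels was not tested.

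**Figure D1:**
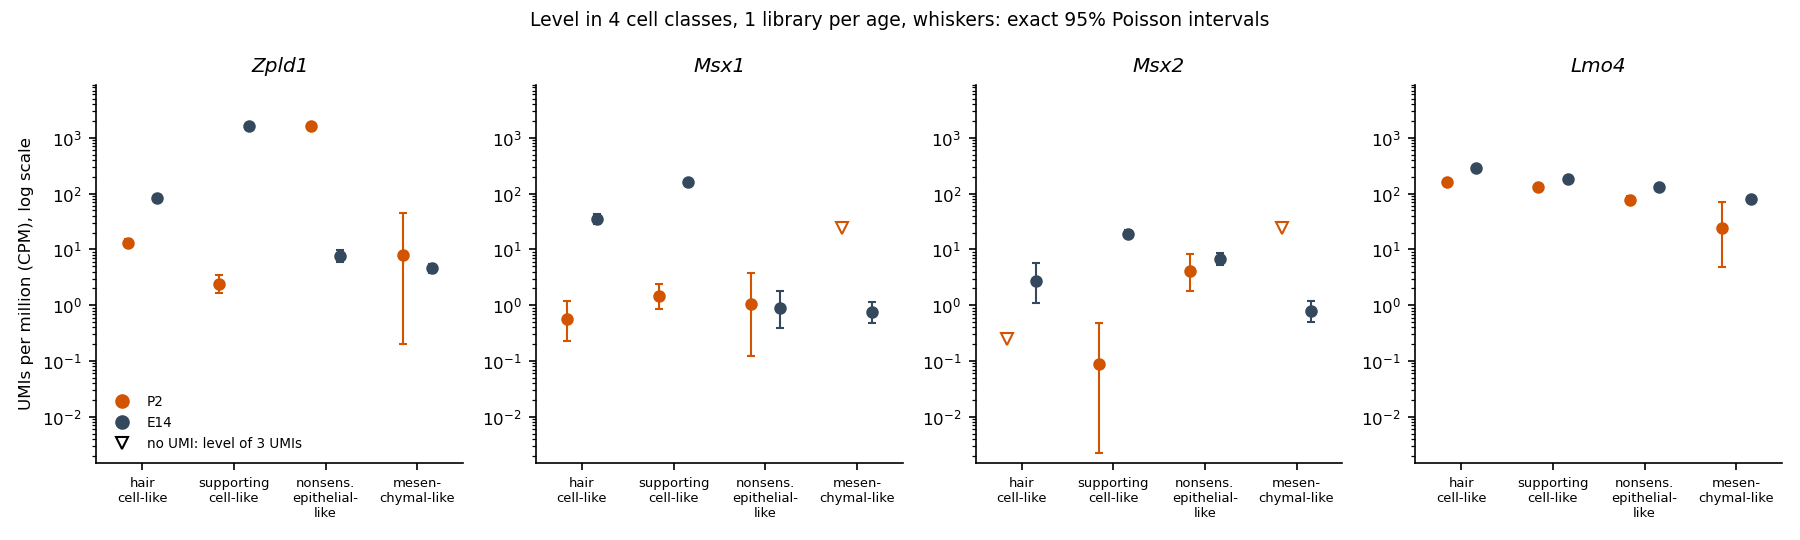
Counts per 1000000 UMIs (CPM) of the 4 genes on a log axis in 4 cell classes, with P2 left of E14 in each class, whiskers as exact 95% Poisson intervals and open triangles at the level of 3 UMIs where none was found. The high Zpld1 point is the nonsensory class at P2 (1654 CPM) and the supporting class at E14 (1602 CPM), Msx1 is above 10 CPM in hair and supporting classes at E14 alone, and Lmo4 spans a narrow range.

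Msx1, unlike Zpld1, had no class with a high level at P2. Supporting cell-like cells held 17 UMIs at P2, 1.48 CPM, and 1525 UMIs at E14, 162 (154 to 171) CPM, a ratio of 0.00914 (0.00531 to 0.0147). Hair cell-like cells held 7 UMIs at P2, 0.566 CPM, and 90 UMIs at E14, 35.4 (28.4 to 43.5) CPM, a ratio of 0.0160 (0.00626 to 0.0343). Nonsensory epithelial-like cells were low at both ages, with 2 UMIs (1.03 CPM) at P2 and 8 UMIs (0.907 CPM) at E14. The E14 hair cell-like level was 13.3 CPM with doublets kept. No P2 cell had more than 1 Msx1 UMI. After each cell was thinned to 4000 UMIs, 0.334% of supporting cell-like cells had an Msx1 UMI at P2 and 15.7% at E14, with median depths before thinning of 11476 and 8677 UMIs. The share in E14 mesenchymal-like cells, where Msx1 stood at 0.753 CPM, was 0.231% (8 of 3462 cells, median depth 7296). It comes from the E14 library and does not give the P2 background, for which only 10 mesenchymal-like cells could be thinned. The P2 supporting cell-like share rests on 2 of 599 cells and is not read as expression. In barcodes that failed the filter Msx1 was at 1.27 CPM at P2 and 2.43 CPM at E14.

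Msx2 was detected at low levels throughout. It was at 0.0872 CPM (1 UMI) at P2 and 19.1 CPM (180 UMIs) at E14 in the supporting class, with a P2 over E14 ratio of 0.00456 (0.000115 to 0.0257). In nonsensory epithelial-like cells it was at 4.11 CPM (8 UMIs) at P2 and 6.81 CPM (60 UMIs) at E14, and the interval of the ratio of 0.605, 0.250 to 1.27, spans equality. Hair cell-like cells had no Msx2 UMI at P2 and 7 UMIs (2.75 CPM) at E14, and the ratio was 0.0882 with the floor of 3 UMIs for the P2 class, while the exact interval from 0 UMIs reached 0.143.

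Lmo4 was lower at P2 in each of the 4 main classes. Hair cell-like cells held 163.9 (156.9 to 171.2) CPM at P2 and 284.4 (264.0 to 305.8) CPM at E14, a ratio of 0.577 (0.529 to 0.629). Supporting cell-like cells held 132 (126 to 139) CPM at P2 and 184 (175 to 193) CPM at E14, a ratio of 0.719 (0.670 to 0.770). In nonsensory epithelial-like cells the level was 77.1 (65.3 to 90.5) CPM at P2 and 130 (123 to 138) CPM at E14, a ratio of 0.592 (0.496 to 0.702). The order of the 3 epithelial classes was the same at both ages, with hair cell-like cells highest, and neighbours in that order had intervals that did not overlap. Mesenchymal-like cells had 3 Lmo4 UMIs in 32 cells at P2 and 79.3 (76.1 to 82.6) CPM at E14. In barcodes that failed the filter Lmo4 was at 91.6 CPM at P2, above the P2 nonsensory level, and at 40.9 CPM at E14. The part of free RNA in levels near or below these values was not tested. This limit covers the nonsensory ratio and every P2 cluster from cluster 9 downward in order of Lmo4 level. Clusters 1, 15, 17, 18 and 20 are among them.

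Among clusters, 2 at P2 held most of the Zpld1, and 1 at E14. At P2 cluster 20 (49 cells, led by Nupr1, Prss56 and C1ql3, nonsensory epithelial-like) was at 2982 (2880 to 3087) CPM and cluster 17 (71 cells, led by Sostdc1, Zpld1 and Car3, unnamed) at 2966 (2868 to 3068) CPM, intervals that overlap. They held 87.2% of all P2 Zpld1 UMIs. At E14 cluster 18 (171 cells, led by Zpld1, Msx1 and Hes5, supporting cell-like) was at 4717 (4640 to 4794) CPM and held 72.8% of all Zpld1 UMIs, and cluster 27 (54 cells, led by Nts, Jag1 and Zpld1) was at 1774 (1636 to 1920) CPM with 3.08% of them. Unnamed clusters 13 (290 cells led by Vit, Aldh1a1 and Smoc2), 9 (356 cells led by Slc26a4, Cldn22 and Sfrp1) and 4 held larger shares than cluster 27, at 10.2%, 4.70% and 4.54%, with levels of 449, 206 and 822 CPM. Most other clusters were far below these, with a median over clusters of 7.62 CPM at P2 and 10.2 CPM at E14, and 21 of 25 neighbour pairs in the P2 order and 26 of 31 in the E14 order had overlapping intervals. Next in order of level were cluster 2 at P2, 312 CPM in 278 cells of median depth 1661, and cluster 4 at E14, with 567 cells of median depth 1490 led by haemoglobin genes. These shallow clusters are unnamed, and what their Zpld1 reflects was not tested.

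The 2 P2 clusters differed in how Zpld1 was spread over cells. In thinned cells of cluster 20 the median was 10 Zpld1 UMIs with quartiles of 5 and 17, and 93.9% of cells had at least 1. In cluster 17 the median was 0 with an upper quartile of 21.25, and 42.7% of cells (29 of 68) had at least 1. Cluster 17 was thus a mixture of cells with many Zpld1 molecules and cells with none, at a mean close to that of cluster 20. At E14, cluster 18 had a median of 19 with quartiles of 13 and 28, and 98.6% of its cells were positive. Every thinned cell of cluster 27 was positive, with a median of 7. Smaller levels elsewhere rested on few cells at E14, since 66 of the 68 Zpld1 UMIs of the melanocyte-like cluster and 82 of the 208 of hair cell-like cluster 20 came from 1 cell each.

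The E14 cells rich in Zpld1 also carried most of the Msx1. Cluster 18 held Msx1 at 481.2 (456.9 to 506.5) CPM, 85.0% of all Msx1 UMIs at that age, and cluster 27 at 58.2 CPM. The hair cell-like clusters 20 and 30 followed at 36.4 and 32.4 CPM, intervals that overlap. No P2 cluster stood apart: the highest, cluster 16, was at 5.32 CPM from 1 UMI, 13 of 26 clusters had no Msx1 UMI, and all 25 neighbour pairs overlapped. The P2 clusters rich in Zpld1 were no exception, with 2 Msx1 UMIs in cluster 20 (1.86 CPM) and none in cluster 17. Msx2 was at 7.43 CPM (8 UMIs) in P2 cluster 20 and 1.74 CPM (2 UMIs) in P2 cluster 17, and it was highest at E14 in cluster 18, at 53.4 (45.5 to 62.3) CPM, which held 39.8% of its UMIs. Under 4 alternatives a small cluster with Zpld1 at 1.69 to 1.98 CPM was higher for Msx2, at 118.5 to 127 CPM. Across clusters, Pearson's r of log2(CPM + 5) for Zpld1 and Msx1 was 0.0622 at P2 (26 clusters) and 0.678 at E14 (32 clusters), and for Zpld1 and Msx2 it was 0.722 and 0.707. For Zpld1 and Lmo4 it was −0.164 at P2 and 0.267 at E14. The clusters of an age share 1 library and differ in depth, so these are descriptions.

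**Figure D2:**
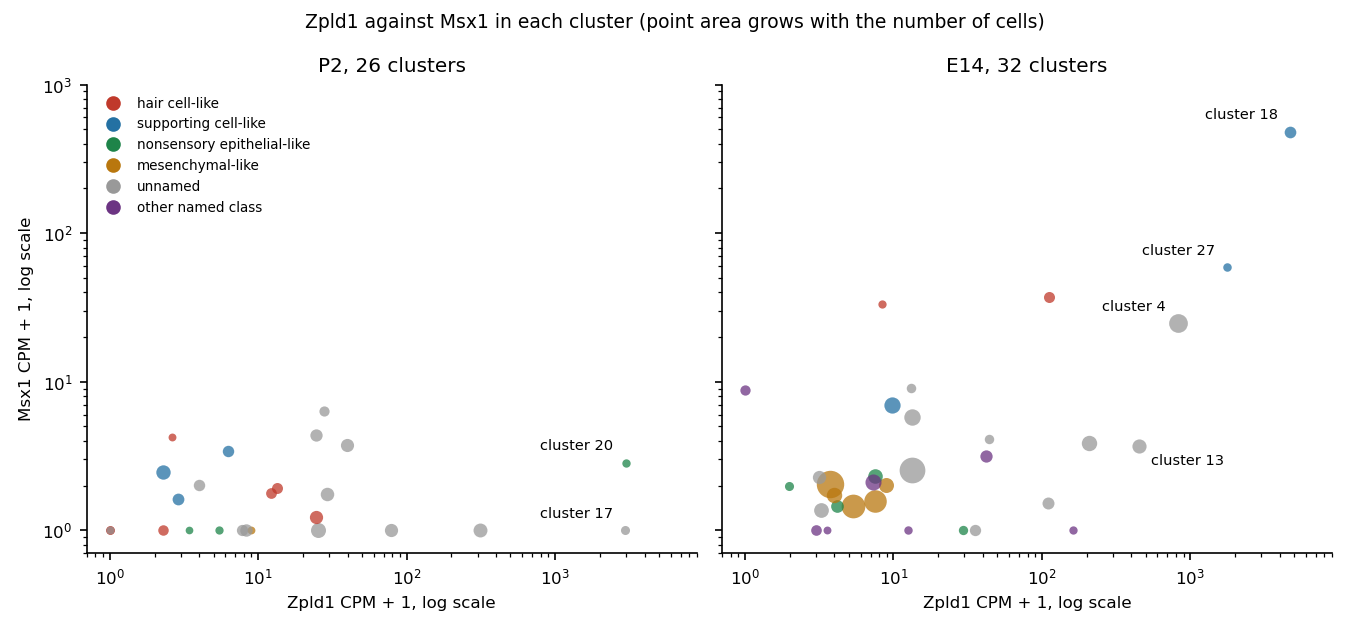
Zpld1 against Msx1 in each cluster, both as CPM + 1 on log axes, at P2 (26 clusters) and E14 (32 clusters), coloured by class with point area growing with the number of cells. Clusters 20 and 17 at P2 lie far right with almost no Msx1, whereas clusters 18 and 27 at E14 are high on both axes.

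Other genes told the Zpld1 clusters of the ages apart. Sox2, a marker of prosensory and supporting cells, was at 19.5 and 13.9 CPM in P2 clusters 20 and 17, and at 605 and 413 CPM in E14 clusters 18 and 27. Lmx1a, a regulator kept in nonsensory epithelium, was at 112 and 42.5 CPM in the P2 pair and at 0.655 and 8.72 CPM in the E14 pair. Bmp4 was at 1.86 CPM and without a UMI in the P2 pair, and at 137.6 and 26.2 CPM in the E14 pair. All 4 clusters were epithelial by Epcam, at 2656 and 2803 CPM at P2 and 1962 and 1538 CPM at E14. Tectb, which encodes a protein of the macular gel, had no UMI in E14 clusters 18 and 27 and was at 34.3 and 29.5 CPM in the P2 pair, whereas E14 supporting cluster 6 held it at 492 CPM with Zpld1 at 8.8 CPM. Bmp4 in cluster 27 rested on 9 UMIs and was near the 19.2 CPM of all kept E14 cells, so the crista-type pattern of Bmp4 with Zpld1 and no Tectb held in cluster 18 alone. The P2 pair lacked Sox2 and Bmp4 at such levels. Cluster 27 also held the mesenchymal markers Col1a2 at 323 CPM and Pou3f4 at 148 CPM, against 19.7 and 2.95 CPM in cluster 18, and the part of mesenchymal RNA in its levels was not tested.

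Within single cells thinned to 4000 UMIs, Zpld1 and Msx1 were found together at E14, and at P2 too few cells had Msx1 to tell. At P2, 78 of 1457 epithelial-like cells had Zpld1, 3 had Msx1 and none had both, a ratio of observed to expected co-detection of 0 (0 to 22.9). At E14, 213 of 1336 had Zpld1, 107 had Msx1 and 88 had both, 5.16 (4.16 to 6.31) times the product of the single shares. Intervals of these co-detection ratios cover only the count of cells with both genes. The single shares were held fixed, so a limit can lie beyond the highest ratio they allow. Without thinning, 5 of 1552 P2 cells had both against 3.40 expected. Zpld1 and Msx2 were found together 18.7 (2.26 to 67.4) times the product at P2, from 2 cells, and 3.33 (2.18 to 4.85) times at E14, from 26 cells. The P2 value is the highest that the shares allow, since every thinned Msx2-positive cell had Zpld1. Without thinning, 8 of the 9 Msx2-positive epithelial-like cells at P2 had Zpld1. For Zpld1 and Lmo4 the ratio was 0.914 (0.609 to 1.32) at P2 and 1.15 (0.952 to 1.38) at E14, intervals that include 1. Over all kept cells it was 0.804 (0.573 to 1.10) at P2 and 1.39 (1.203 to 1.604) at E14. Over cells with an Epcam UMI it was 0.807 (0.575 to 1.10) at P2 and 1.22 (1.05 to 1.41) at E14. These wider sets pool unlike cell types, and whether Lmo4 goes with Zpld1 within a type was not tested.

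Inside cluster 18, where nearly all cells had Zpld1, the observed over expected ratio was 1.02 for Msx1 with Lmo4 and 1.14 (0.633 to 1.84) for Msx1 with Msx2. Msx1 was found in 33.9% (22.6 to 46.7) of the 65 Bmp4-positive cells of the cluster and in 65.8% (54.3 to 76.1) of the Bmp4-negative cells, a comparison singled out after the values were seen. In E14 hair cell-like cells, 6 of 18 Zpld1-positive cells had Msx1, 3.43 (1.27 to 7.32) times the product.

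Cells with at least 5 Zpld1 UMIs after thinning were also picked without regard to clusters. Most of them lay in the clusters above, at P2 38 in cluster 20 and 28 in cluster 17. At E14, 132 were in cluster 18 and 28 in cluster 27. Their values are therefore largely those of the same cells and are not a separate line of evidence. There were 82 such cells of 2565 at P2 and 224 of 6940 at E14. Epcam was in 100% of them at P2 and 99.6% at E14. Of the other cells, 93.5% had Epcam at P2 but 31.8% at E14. Shares in other cells are thus not alike between ages, since at E14 most other cells had no detected Epcam. Msx1 was found in 0 of the 82 cells at P2, which allows a share of up to 3.66% by the floor of 3 cells and 4.40% by the exact interval, and in 35.3% (29.0 to 41.9) of the 224 cells at E14. Other E14 cells had it in 0.640%. Msx2 was in 3.66% (3 cells) at P2 and 11.2% at E14, against 0.0806% and 0.849% of other cells. Sox2 was in 6.10% of the Zpld1-rich cells at P2, where 57.4% of other cells had it, and in 70.5% at E14, where 10.7% of other cells had it. Oc90, which encodes a major protein of otoconia, was in 100% at P2 (62.5% of other cells) and 94.2% at E14 (34.8% of other cells). Otop1, a proton channel needed for otoconia, was in 0 of the 82 cells at P2 and in 0.446% at E14, but it was also rare in other cells, at 6.85% and 2.43%. Lmo4 went with Zpld1 in neither library as Msx1 did at E14, at 23.2% at P2 (33.8% of other cells) and 46.9% at E14 (33.4% of other cells).

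**Figure D3:**
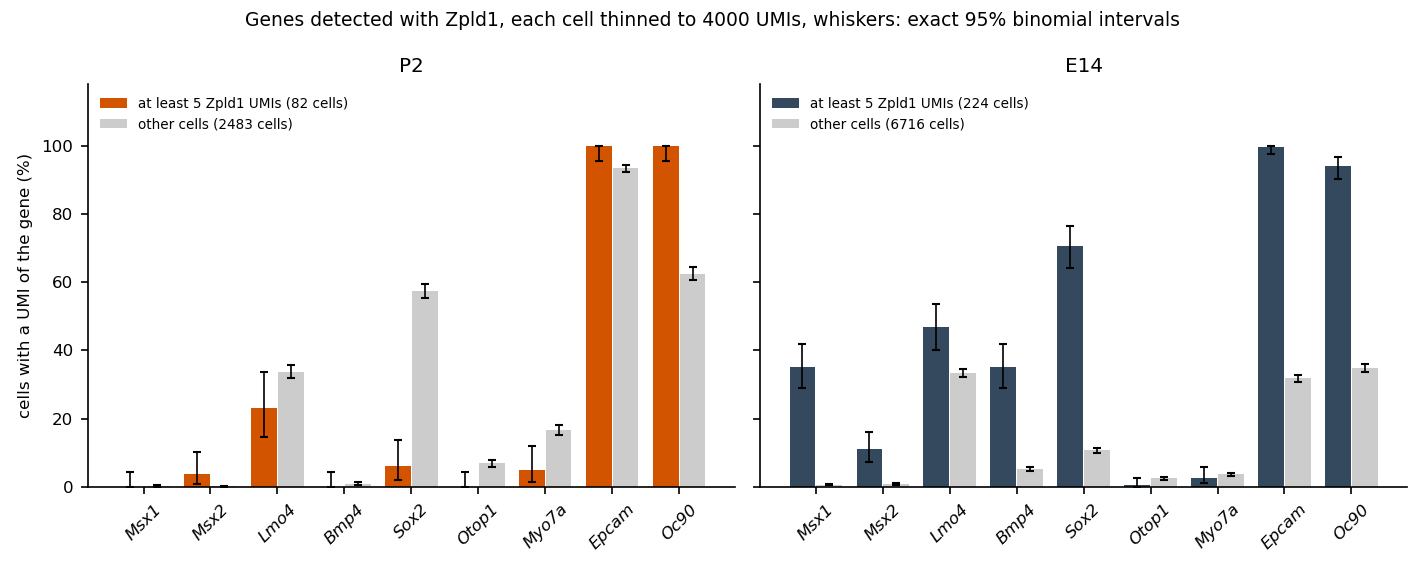
Percent of cells with a UMI of each of 9 genes among cells with at least 5 Zpld1 UMIs (coloured bars) and among other cells (grey bars) at P2 and E14, after thinning each cell to 4000 UMIs, with exact 95% binomial whiskers. Msx1 and Bmp4 bars are absent at P2 and reach 35.3% at E14, and Sox2 is low beside grey at P2 (6.10%) and high at E14 (70.5%). The grey cells differ between ages, with Epcam in 93.5% at P2 and 31.8% at E14.

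Lmo4 varied over a different set of cells. At P2 its highest cluster was 23 (35 hair cell-like cells led by Ocm, which encodes the striolar calcium buffer oncomodulin) at 322.6 (279 to 371) CPM. The unnamed cluster 12, also led by Ocm but with a median depth of only 1394 UMIs, was at 255.3 CPM, hair cell-like cluster 13 at 235.6 CPM and the Tectb-led supporting cluster 11 at 235.1 CPM. Hair cells were not uniform, since clusters 15 and 18 held 56.7 and 41.3 CPM, nor were supporting cells, since clusters 9 and 1 held 97.9 and 97.6 CPM. At E14 the glial-like cluster 7 was highest at 867.5 CPM, with 20.3% of all Lmo4 UMIs, and the smaller hair cell-like cluster 30 was next at 492.9 (442 to 549) CPM, above hair cell-like cluster 20 at 208.4 CPM. The Zpld1 clusters were unremarkable for Lmo4, at 90.0 and 48.6 CPM in P2 clusters 20 and 17 and 175 and 139.6 CPM in E14 clusters 18 and 27, beside medians over clusters of 88.2 CPM at P2 and 109.2 CPM at E14. The highest cluster exceeded the median 3.66 times at P2 and 7.94 times at E14.

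**Figure D4:**
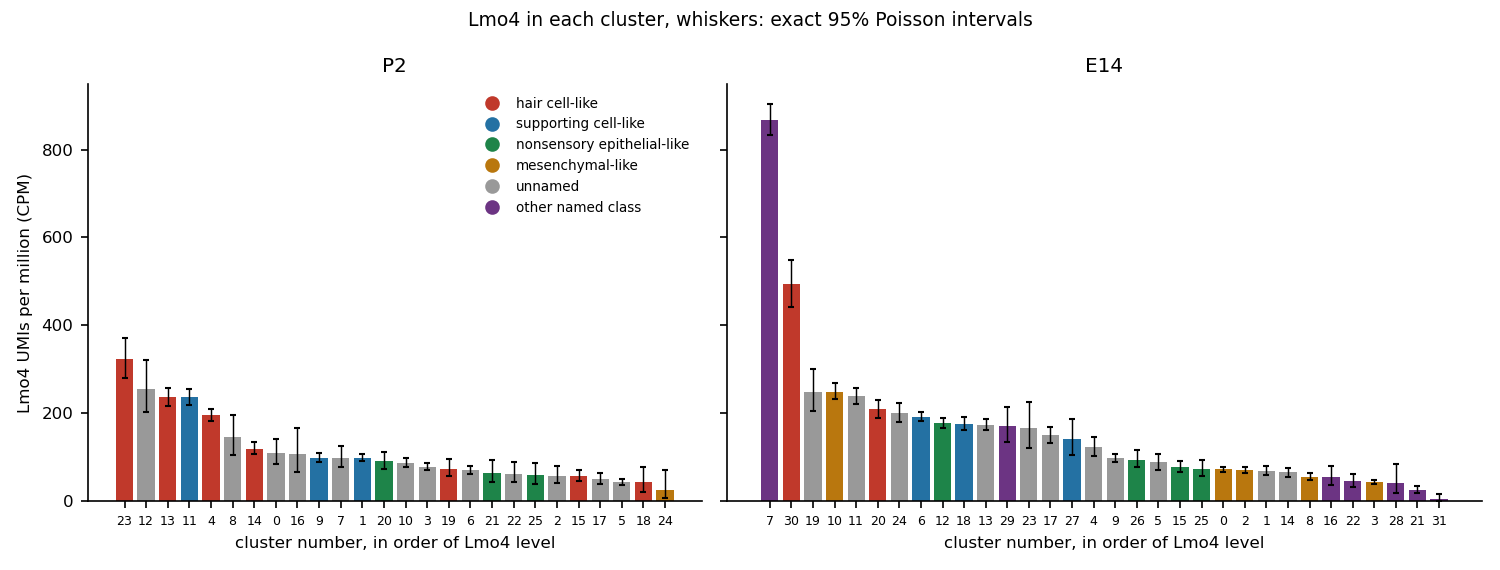
Lmo4 in CPM in each cluster, in order of level, at P2 and E14, with bars coloured by class and whiskers as exact 95% Poisson intervals. The Ocm-led hair cell-like cluster 23 leads at P2 (322.6 CPM) and the glial-like cluster 7 at E14 (867.5 CPM), and levels fall to 23.8 CPM at P2 and 2.56 CPM (1 UMI) at E14.

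6 lists of related genes were set beside the 4, a gene counting as measured with at least 10 UMIs at either age and as higher or lower when at least 2-fold apart. In supporting cell-like cells 11.2% of 13694 genes were higher at P2 and 9.8% were lower. Of the 4 genes themselves 3 were lower there, a count that describes the values they were picked with. Of 10 BMP response genes 9 were measured, none was higher and 5 were lower, with a median log2 ratio of −1.19 beside 0.04 over all genes. Id3, an inhibitor of bHLH factors induced by BMP, was at 279.9 CPM at P2 and 940.9 CPM at E14, while Id1 was at 579 and 483 CPM. Of 12 macular gel and otoconia genes 10 were measured and 5 were higher, with none lower and a median of 1.09. Tectb was at 2081 CPM at P2 and 314 CPM at E14, and Otol1, the otolin of otoconia, at 1810 and 722 CPM. Of 16 crista and canal regulators 15 were measured, with 1 higher and 4 lower and a median of −0.14, and Jag1, the Notch ligand of prosensory cells, was at 64.9 CPM at P2 and 286.7 CPM at E14. Of 11 LMO and LIM cofactor genes 9 were measured with 2 higher, and of 9 Msx-related homeobox genes 7 were measured with 1 lower. Of 8 zona pellucida domain genes 4 were measured, with 2 higher, both of them tectorins, and 1 lower.

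In hair cell-like cells 9.54% of 13230 genes were higher at P2 and 5.65% were lower, and of the 3 measured among the 4 genes 2 were lower. BMP response genes had 2 of 7 measured higher and none lower, and the crista and canal list had 1 of 14 higher and 3 lower, Tbx1 among them at 0.162 CPM at P2 and 76.98 CPM at E14. In nonsensory epithelial-like cells 8.36% of 13280 genes were higher and 12.5% were lower, and of the 3 measured among the 4 genes Zpld1 was higher. There 5 of 10 measured macular gel genes were higher and 2 lower, and 3 of 4 measured zona pellucida genes were higher, with Tecta at 159 CPM at P2 and 55.4 CPM at E14. BMP response genes had none higher and 1 of 10 lower, and Dlx2 and Dlx1 were the 2 of 7 Msx-related genes that were higher, Dlx1 at 41.7 CPM at P2 and 12.9 CPM at E14.

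The Zpld1 clusters were also read against the rest of their own library. At P2, clusters 20 and 17 together held the canal regulators Hmx2 at 439 CPM (142 CPM in other cells) and Hmx3 at 337 CPM (119 CPM), and Tecta at 882 CPM (304 CPM). They held less Tectb, 31.9 CPM against 626 CPM, and less Isl1, 18.4 CPM against 125 CPM. Id1 was at 811 CPM (442 CPM in other cells) and Id4 at 87.0 CPM (327 CPM). At E14, clusters 18 and 27 held Jag1 at 443 CPM (35.6 CPM in other cells), Bmp4 at 126 CPM (14.4 CPM), Id4 at 611 CPM (49.3 CPM) and Otog at 632 CPM (74.4 CPM). Hmx2 and Hmx3 went the other way in these E14 clusters, at 39.45 CPM (103.8 CPM) and 26.2 CPM (42.8 CPM). Isl1, a LIM-homeobox gene that can bind Ldb1, was at 386 CPM in them and 41.3 CPM elsewhere. The high Isl1 and Id4 of the E14 clusters were thus not seen in the P2 clusters, while Tecta was above the rest at P2 alone, since it was at 14.1 CPM in the E14 clusters and 39.0 CPM in other E14 cells.

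The genes whose pattern over clusters was most like each of the 4 were ranked by the lower of the r values of the 2 ages, among genes with at least 100 UMIs at both ages, which leaves Msx1 and Msx2 out as candidates. For Msx2 the first was Zpld1, with the r values given above, followed by Hspb8 (0.634 at P2, 0.749 at E14). For Zpld1 itself the first 2 were Chmp2b (0.553 at P2, 0.502 at E14) and Rab27b (0.502 at P2, 0.598 at E14). Lmo4 was most like Xrcc5 (0.717 at P2, 0.718 at E14) and Kif21a (0.686 at P2, 0.737 at E14). For Msx1 the first was A430105I19Rik (0.640 at P2, 0.621 at E14), but with 44 Msx1 and 23 Msx2 UMIs at P2 the order of these 2 genes over P2 clusters rests on few molecules.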

How the data were processed

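The authors deposited raw UMI counts per gene and barcode for 1 library at P2 and 1 at E14. The submitters' processing notes name Cell Ranger 3.1.0, Seurat 4.1.1 and the builds GRCm39 and mm10, and the study's methods give GRCm39 for the single-cell alignment. Positions come from GENCODE M21 and upstream sequences from RefSeq, both on GRCm38, where all 4 genes matched by symbol.

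A barcode had to carry 500 or more genes and 1000 or more UMIs, with a mitochondrial share no higher than 15%, which left 4081 at P2 and 11588 at E14. Each barcode was scored by its simulated-doublet neighbours (2 simulated per cell), and the top-scoring 0.8% per 1000 deposited barcodes were dropped, 204 at P2 and 1450 at E14. Counts were scaled to 10000 per cell and log-transformed. The 2000 most variable genes, without the 4 genes, the list genes and mitochondrial, ribosomal and haemoglobin genes, gave 30 principal components, a 15-neighbour graph and Leiden clusters at resolution 1. Clusters were named from 103 markers of 12 cell types. UMIs were summed per cluster or class. Levels have exact Poisson intervals, ratios between ages exact conditional binomial intervals and shares exact binomial intervals, all at 95%. Co-detection ratios have the exact binomial interval of the joint count over a fixed product of the single shares. Cells were thinned to 4000 UMIs for shares, and shallower cells were left out. Likeness was Pearson's r of log2(CPM + 5) among genes with at least 100 UMIs at both ages. The members and the lists were chosen with earlier results of these data known. Named from the lists were up to 4 genes with the highest level. No test between ages was run, since cells are not replicates. The procedure was tested on simulated data. Clustering used leidenalg 0.10.2, igraph 0.11.9 and scikit-learn 1.9.0, intervals came from scipy 1.17.1, and tables and figures were made in Python 3.11.15 by pandas 2.3.3, numpy 2.4.6 and matplotlib 3.10.9. Alternatives were another barcode filter, doublet number, resolution, gene set, number of components, scaling and thinning depth, and leaving out shared barcodes.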

Additional observations from a re-analysis of the deposited data

Results flagged for a closer look

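The Zpld1 ratio of P2 over E14 was 217.7 in nonsensory epithelial-like cells, 0.157 in hair cell-like cells and 0.00153 in supporting cell-like cells. The classes thus stood on opposite sides of equality, also with doublets kept, where the nonsensory level was 1614 CPM at P2 and 167.6 CPM at E14. Cluster 20 carried the nonsensory value, and without it the ratio was 0.455 (0.0916 to 1.39). Without the E14 cell with 82 Zpld1 UMIs the hair cell-like ratio was 0.251. The difference between classes was not tested, and different clusters carried Zpld1 in the classes of each age.

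Signal was also found outside the named classes. Cluster 17 at P2 held Zpld1 at 2966 CPM, and cluster 12 at P2, of shallow cells led by Ocm, held Lmo4 at 255.3 CPM.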

How the results depend on the processing

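In the epithelial-like cells the P2 over E14 ratios of all 4 genes stayed below 1 under every alternative run. The Zpld1 ratio, 0.179, was 0.297 without the cell filter, 0.247 with doublets kept, 0.199 with more doublets removed, 0.187 at resolution 2, 0.166 with the 4 genes and list genes used to cluster, 0.301 with 15 principal components and 0.317 without the barcodes shared by both libraries. Msx1, at 0.0129, was 0.0228 with doublets kept. Lmo4, at 0.826, was 0.777 at resolution 0.5, 0.767 with 15 principal components and 0.747 without shared barcodes. Over all cells with an Epcam UMI, chosen after seeing the data, the ratios were 0.340 for Zpld1, 0.0228 for Msx1 and 0.721 for Lmo4, and over all kept cells, likewise, 0.684 for Zpld1, 0.0454 for Msx1, 0.0999 for Msx2 and 0.778 for Lmo4. The E14 co-detection of Zpld1 and Msx1, 5.16, was 6.63 with more doublets removed and 3.87 without thinning. At P2 it was 0 in every thinned alternative and 1.47 without thinning. The cause of these shifts was not tested. The other 56 values of this kind moved by less than their counting interval, as did 232 class levels, while 58 class levels moved by more. No paired analysis was possible because each age is 1 library. Depth limits Msx1 and Msx2 at P2 most, with 44 and 23 UMIs in all kept cells.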

Other observations

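Under some alternatives an E14 cluster of 43 to 50 cells led by Aldh1a1, Wfdc12 and Mylk3 came out with the highest Msx2 level of any cluster. It held Msx2 at 125 CPM under the stricter barcode filter, 118.5 CPM with doublets kept, 127 CPM with more doublets removed and 123.4 CPM at resolution 2, and Zpld1 at 1.69 to 1.98 CPM. Msx2 thus also had a high level in E14 cells with little Zpld1.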
